A study of Mus musculus with 6 samples.

Results

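Of the 10 genes described here, Nfe2l2 encodes the transcription factor NRF2 and Keap1 its inhibitor KEAP1. Gclc, Gclm, Gss and Gsr encode enzymes or enzyme subunits of glutathione synthesis and recycling. Txnrd1 and Srxn1 encode 2 enzymes of the thioredoxin and peroxiredoxin cycles, and Nqo1 and Hmox1 encode 2 detoxifying enzymes. The 10 genes were listed by symbol as genes of oxidative stress defence, and all 10 were found among the 19937 genes measured. Each has 1 probe set of its own on the array. RNA from pooled polysome fractions of mouse leukaemia cells was hybridised, 1 array for every sample. The cells, clone #483 from the C57BL6 strain, are a T-ALL, a leukaemia of immature T cells. In the treated group, 3 samples had received 100 µM 4EGI-1 for 2 h, a small molecule that interferes with the pairing of the cap-binding protein eIF4E with eIF4G. The 3 control samples are titled untreated, but the protocol names DMSO as the alternative to the compound, so their exposure to solvent is not settled. All samples come from 1 clone, so differences between leukaemias are not covered. The series' design text calls the samples biological replicates.

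In unstressed cells KEAP1 hands NRF2 to a CUL3 ubiquitin ligase, and NRF2 is degraded soon after it is made. Oxidants and electrophiles modify cysteines of KEAP1, NRF2 accumulates, pairs with small MAF proteins and binds antioxidant response elements in genes for glutathione synthesis, thioredoxin reduction, NADPH supply and haem breakdown. Because the factor turns over quickly, its amount depends on continued translation of its mRNA. Signals here are log2 intensities of polysome-associated RNA, summarised per probe set by the authors with RMA, a method that equalises arrays before it summarises them. Rises and falls are thus relative to the other RNAs on the same array. A change in the total amount of polysomal RNA would not show. A difference in polysomal signal can come from the amount of an mRNA or from its loading on ribosomes, and these cannot be told apart without total RNA.

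The antioxidant response element is the sequence through which NRF2 acts, so stretches around its matches in the members' promoters are printed first. RefSeq promoters (GRCm38.p6), from 250 bases before to 50 bases after a transcription start, were matched for 7 of the 10 genes, with 9 starts in all; Gclc, Gsr and Hmox1 were not matched. The core TGACNNNGC was searched on both strands. It was present at 1 start each of Nfe2l2, Gclm, Srxn1 and Txnrd1, which has 3 starts. It was not found at the starts of Gss, Nqo1 and Keap1, which says only that these letters are not in that window. Of all 32851 promoters of this length, 12.4% hold the core. The 3 matches that lie before the start are given 5′ to 3′ on the gene's strand, with the match in capitals; in Gclm and Txnrd1 the core reads on the opposite strand. 
Nfe2l2, chr2:75704870-75704913, minus strand, match beginning at -240 from the start: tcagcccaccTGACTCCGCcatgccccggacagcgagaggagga
Gclm, chr3:122245398-122245456, plus strand, match beginning at -134 from the start: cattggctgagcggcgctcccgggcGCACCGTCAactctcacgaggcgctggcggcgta
Txnrd1, chr10:82859089-82859147, plus strand, match beginning at -92 from the start: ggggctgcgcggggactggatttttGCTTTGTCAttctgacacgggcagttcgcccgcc
In Srxn1 the match GCTAGGTCA begins at base 29 of the transcript. The C/EBP-ATF element TGATGNAAN, the kind of site bound by ATF4, was not found in any of the 9 windows and is present in 3.95% of all promoters. The matches are a description of sequence and do not show that a factor was bound.

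After 4EGI-1, polysomal Nfe2l2 mRNA rose 1.56-fold and Hmox1 mRNA, which encodes the haem-degrading enzyme haem oxygenase 1, rose 1.37-fold. The 3 glutathione genes Gclc, Gclm and Gsr fell by modest amounts, to 0.862, 0.859 and 0.793 times the control level. Keap1, Gss, Txnrd1, Srxn1 and Nqo1 did not pass the test. Thus 2 of 10 members rose and 3 fell at a Benjamini-Hochberg adjusted p under 0.05 in limma, fitted over all genes. Among all genes, 11.5% rose and 11.5% fell, 22.9% in all. The list is short, so its count of 5 is given beside that background without a test. In the fit restricted to the 9969 genes at or above the median signal, which hold all members but Srxn1, 22.9% rose and 28% fell, and the members gave 2 rises and 4 falls. The median log2 difference of the members was -0.09, against -0.03 over all genes, and 7 of the 10 differences were below 0.

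**Figure D1:**
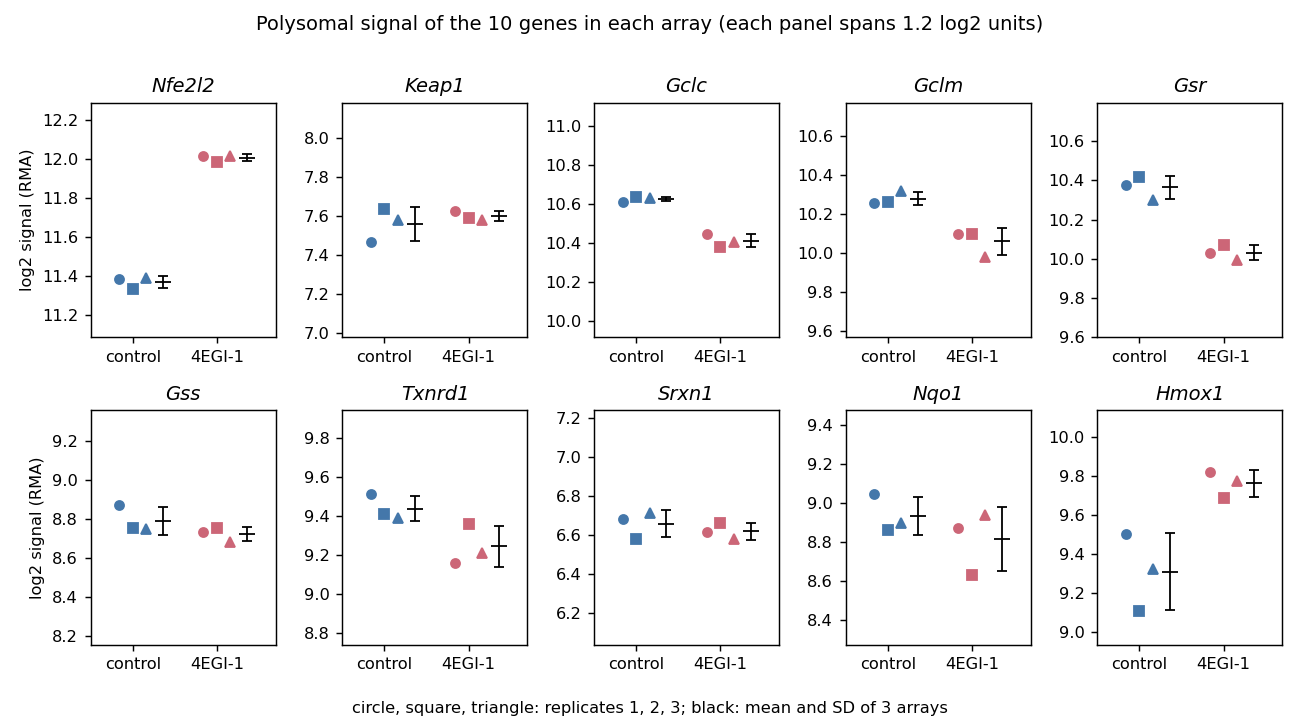
Log2 RMA signal (vertical axis) of the 10 genes in the 3 control arrays (blue) and the 3 arrays treated with 4EGI-1 (red); every panel spans the same range, and the black marks are the mean and SD. The treated arrays lie above the controls for Nfe2l2 and Hmox1 and below them for Gclc, Gclm, Gsr and Txnrd1, while the groups overlap for Keap1, Gss, Srxn1 and Nqo1.

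Nfe2l2 gave the most clear-cut change of the 10. Its log2 signal was 11.38, 11.33 and 11.39 in the control arrays and 12.01, 11.98 and 12.02 in the treated arrays. All 3 treated values lay above all controls, and the nearest values of the groups were 0.60 apart, against SDs of 0.03 and 0.02 within them. The mean went from 11.37 ± 0.03 to 12.01 ± 0.02 (SD, n = 3 each), a log2 difference of 0.64 ± 0.06 (SE, limma adjusted p = 0.000186, 95% interval 0.51 to 0.77). Of all genes, 96.9% had a smaller signed difference. The call held without any one of the 6 arrays, with differences from 0.62 to 0.65.

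Keap1, the adaptor that presents NRF2 for degradation, showed no such shift. Its log2 signal was 7.46, 7.63 and 7.58 in controls and 7.63, 7.59 and 7.58 with 4EGI-1, so the treated values fell inside the range of the controls. The log2 difference was 0.04 ± 0.07 (SE, limma adjusted p = 0.741), with a 95% interval from -0.11 to 0.19, and it was -0.0083 without control replicate 1. The ratio of factor to inhibitor within each array can be compared directly. The log2 ratio of Nfe2l2 to Keap1 was 3.81 ± 0.11 in controls and 4.41 ± 0.03 with 4EGI-1 (SD, n = 3 each), higher by 0.60 in the treated arrays. The groups did not overlap (exact two-sided permutation p = 0.1, the smallest that 3 against 3 allows, and 0.15 adjusted over the 3 ratios tested). This ratio shows unequal change and not the relative amounts of both mRNAs, since probe sets differ in brightness.

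Glutamate-cysteine ligase catalyses the rate-limiting step of glutathione synthesis, with Gclc encoding its catalytic and Gclm its modifier subunit. Gclc had a log2 signal of 10.61, 10.64 and 10.63 in controls and 10.45, 10.38 and 10.41 with 4EGI-1. Gclm had 10.26, 10.26 and 10.31 in controls and 10.10, 10.10 and 9.98 with 4EGI-1. In both genes every treated array lay below every control array. The fall was 0.21 ± 0.06 for Gclc (log2 difference -0.21, SE, limma adjusted p = 0.0286) and 0.22 ± 0.06 for Gclm (-0.22, SE, limma adjusted p = 0.0387). These calls sat close to the threshold. Gclm lost its call whichever array was left out, with limma adjusted p from 0.0607 to 0.126 and differences from -0.24 to -0.18. Gclc kept it without 4EGI-1 replicate 1 (limma adjusted p = 0.0497). It lost it without control replicate 1 (0.0625), control replicate 2 (0.0813), control replicate 3 (0.0854), 4EGI-1 replicate 2 (0.0814) or 4EGI-1 replicate 3 (0.0796), with differences from -0.23 to -0.20. The subunits moved by like amounts: the log2 ratio of Gclm to Gclc was -0.35 ± 0.03 in controls and -0.35 ± 0.07 with 4EGI-1 (SD, n = 3 each), a difference of -0.01 (exact two-sided permutation p = 1.0). With 3 arrays per group this does not show that the ratio stayed the same.

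Gsr encodes glutathione reductase, which returns oxidised glutathione to its reduced form at the cost of NADPH. Its log2 signal was 10.37, 10.42 and 10.30 in controls and 10.03, 10.07 and 9.99 with 4EGI-1, with 0.23 between the nearest values of the groups. Gsr fell by 0.33 ± 0.06 (log2 difference -0.33, SE, limma adjusted p = 0.0057), the largest fall among the 10 genes, and the call held in all 6 fits that left out an array. Only 7.11% of all genes had a lower difference. Gss encodes glutathione synthetase, which adds glycine in the second step of synthesis. Its signal was 8.87, 8.75 and 8.75 in controls and 8.73, 8.75 and 8.68 with 4EGI-1, and the groups overlapped. The difference for Gss was -0.07 ± 0.06 (SE, limma adjusted p = 0.530, 95% interval -0.21 to 0.08).

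Txnrd1 encodes the cytosolic thioredoxin reductase, a selenoprotein that keeps thioredoxin reduced. Its log2 signal was 9.51, 9.41 and 9.39 in controls and 9.16, 9.36 and 9.21 with 4EGI-1. The treated arrays were all lower, but by only 0.03 between the nearest values, and the difference of -0.19 ± 0.07 (SE) did not pass over all genes (limma adjusted p = 0.105). It passed with 2 other settings, at 0.0302 among the 9969 genes at or above the median signal and at 0.0347 with a trended robust variance prior. Txnrd2, the mitochondrial form, differed by 0.11 ± 0.06 (SE, limma adjusted p = 0.310). The log2 ratio of Txnrd1 to Txnrd2 was 2.72 ± 0.13 in controls and 2.42 ± 0.13 with 4EGI-1 (SD, n = 3 each; exact two-sided permutation p = 0.1, adjusted 0.15). Srxn1 encodes sulfiredoxin, which rescues overoxidised peroxiredoxins. Its signal was 6.68, 6.58 and 6.71 in controls and 6.61, 6.66 and 6.58 with 4EGI-1, with overlapping groups and a difference of -0.04 ± 0.06 (SE, limma adjusted p = 0.731, 95% interval -0.19 to 0.11). Srxn1 was the member whose mean lay below the median of all genes, 6.65.

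Of the detoxifying enzymes, both often used as readouts of NRF2 activity, only Hmox1 passed. Hmox1 had a log2 signal of 9.50, 9.11 and 9.32 in controls and 9.82, 9.69 and 9.78 with 4EGI-1. Every treated array was above every control array, although the controls were the most scattered of the 10 genes (SD 0.20). Hmox1 rose by 0.45 ± 0.10 (SE, limma adjusted p = 0.0130), and it kept the call without any one array, with limma adjusted p up to 0.0445. Nqo1 encodes a quinone reductase that uses NADPH or NADH. Its signal was 9.04, 8.86 and 8.90 in controls and 8.87, 8.63 and 8.94 with 4EGI-1, and the groups overlapped. The difference for Nqo1 was -0.12 ± 0.09 (SE, limma adjusted p = 0.439), with a 95% interval from -0.34 to 0.10. It depended on single arrays, at -0.07 in the fit lacking control replicate 1, -0.03 lacking 4EGI-1 replicate 2 and -0.18 lacking 4EGI-1 replicate 3, and passed in none of these fits. In all, the groups did not overlap for 6 of the 10 genes, 2 higher and 4 lower. Among all genes this held for 37.9%, with 17% higher and 20.8% lower.

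**Figure D2:**
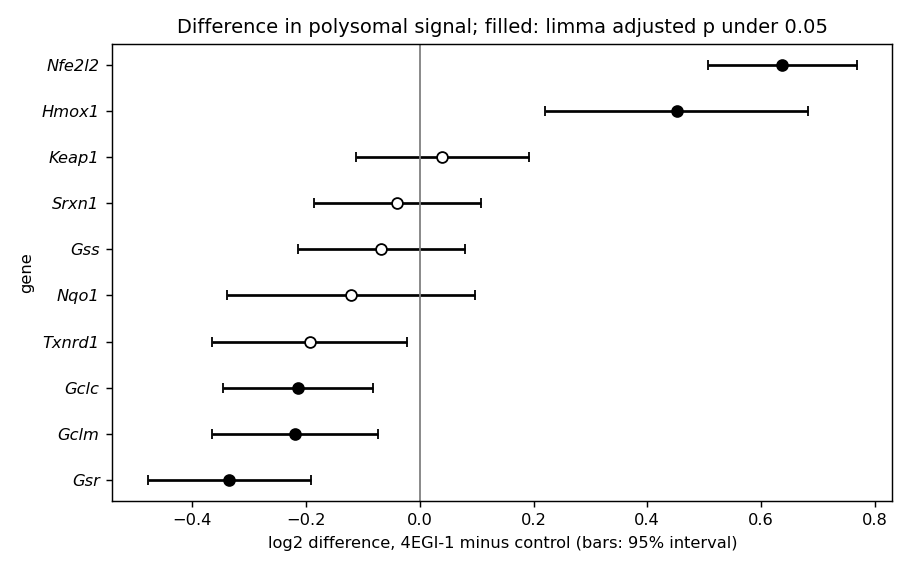
Log2 difference in polysomal signal (horizontal axis, 4EGI-1 minus control) of each of the 10 genes with its 95% interval; filled points passed limma at an adjusted p under 0.05. Nfe2l2 (0.64) and Hmox1 (0.45) lie to the right of 0, and Gclc (-0.21), Gclm (-0.22) and Gsr (-0.33) to the left.

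The other genes of oxidative stress defence were counted in 9 lists that leave the members out. Of 205 genes listed, 192 were measured, of which 21 rose and 44 fell, or 10.9% and 22.9%, with a median log2 difference of -0.07. The lists were written with knowledge of earlier results on these arrays. Counts per list are given beside the all-gene background of 11.5% in each direction. In the restricted fit, 145 genes of the lists were tested, of which 23 rose and 58 fell. The background of that fit is different, with 22.9% of all genes higher and 28% lower.

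Among 22 further regulators of NRF2, 2 rose, 6 fell and 14 did not pass, with a median of -0.11. Cand1, which encodes an exchange factor of cullin ligases, rose by 0.96 ± 0.09 (SE), and Palb2, whose product can bind KEAP1, by 0.48 ± 0.06. Mafk, a small MAF partner of NRF2, fell by 0.31 ± 0.07 and the kinase gene Prkcd by 0.37 ± 0.08. Gsk3a, which encodes a kinase that marks NRF2 for a KEAP1-independent route of degradation, fell by 0.31 ± 0.07. The call of Gsk3a ended in the fits lacking control replicate 2 (limma adjusted p = 0.0557), control replicate 3 (0.0655) or 4EGI-1 replicate 3 (0.0584). The ligase scaffold Cul3, the competing repressor Bach1 and the KEAP1-binding autophagy receptor Sqstm1, chosen after their values were seen, did not pass, with differences of -0.11, -0.11 and 0.11. Neither did Gsk3b (-0.05) nor the other small MAF genes Mafg (-0.03) and Maff (-0.19), also chosen after their values were seen.

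Genes for the supply and turnover of glutathione and its amino acids included the largest rises of all the lists. There were 6 rises and 3 falls among 20 measured genes, 11 missed the threshold, and the median was 0.04. Slc7a11, the cystine importer that feeds glutamate-cysteine ligase, rose by 1.21 ± 0.06 (SE), and Slc1a4, a neutral amino acid transporter gene, by 1.12 ± 0.09. The largest rise was in Chac1, which encodes an enzyme that breaks glutathione down, from 8.72 ± 0.12 to 9.99 ± 0.15 (SD, n = 3 each; log2 difference 1.27, limma adjusted p = 0.000110). Slc7a11 and Chac1 are also known targets of ATF4. Ggct, which encodes another gamma-glutamylcyclotransferase, fell by 0.38 ± 0.06. Glul, the glutamine synthetase gene, fell by 0.47 ± 0.12. The call of Glul ended in the fits lacking control replicate 1 (limma adjusted p = 0.0837), control replicate 2 (0.0755), 4EGI-1 replicate 1 (0.0707) or 4EGI-1 replicate 2 (0.0685), and its other, dimmer probe set differed by 0.08. Slc25a39, a mitochondrial glutathione carrier gene, fell by 0.21 ± 0.06, a call that ended without any one of the 6 arrays (limma adjusted p from 0.0647 to 0.140). The carrier gene Slc25a40 of the same list, chosen after its value was seen, went the other way. It rose by 0.76 ± 0.09 (SE, limma adjusted p = 0.000569) on the brighter of its 2 probe sets.

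Enzymes that work with glutathione were mostly lower where they passed. Of 34 peroxidases, transferases, glutaredoxins and related enzymes, 1 rose, 9 fell and 24 did not pass, with a median of -0.14. Glrx, the cytosolic glutaredoxin gene, fell by 0.88 ± 0.07 (SE), and Glo1, which detoxifies methylglyoxal, by 0.59 ± 0.11. Gstp1, a glutathione transferase gene with a near-identical copy (Gstp2), fell by 0.55 ± 0.06, and its value is uncertain for that reason. The gene that rose was Gstcd, by 0.23 ± 0.06, and it did not pass without any one of the 6 arrays (limma adjusted p from 0.0509 to 0.0933).

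The thioredoxin system and the peroxiredoxins gave 1 gene higher, 9 lower and 12 that did not pass among 22, with a median of -0.15. The sestrin genes were among the largest changes in both directions: Sesn2 rose by 0.98 ± 0.07 (SE), while Sesn1 fell by 0.72 ± 0.07 and Sesn3 by 0.47 ± 0.06. Msrb2, a methionine sulfoxide reductase gene, fell by 0.65 ± 0.07. Of 9 genes around superoxide dismutases and catalase, 0 rose, 4 fell and 5 did not pass, with a median of -0.20. These were Romo1, a mitochondrial inner membrane protein gene (-0.53), Oxr1 (-0.41), Sod2, the mitochondrial superoxide dismutase gene (-0.38), and Park7 (-0.31), the last named after its value was seen. The cytosolic Sod1 and catalase (Cat), also chosen after their values were seen, differed by -0.04 and 0.03 and did not pass.

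NADPH powers both glutathione and thioredoxin reductases, and genes listed around its supply went both ways. Of the 18 measured genes 5 rose, 5 fell and 8 missed the threshold (median -0.09). G6pdx, also listed, was not measured. Among those at or above the median signal, 4 of 14 rose and 7 fell. The rises were led by the folate cycle genes Mthfd1 (1.13 ± 0.07, SE) and Mthfd1l (0.96 ± 0.07), with Aldh1l2 at 0.56 ± 0.10. The falls were led by the malic enzyme gene Me2 (-0.66 ± 0.06), the isocitrate dehydrogenase gene Idh1 (-0.59 ± 0.09) and Rpe of the pentose phosphate pathway (-0.46 ± 0.07). 

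Haem and iron genes, which stand next to Hmox1, gave 4 rises, 4 falls and 14 genes that did not pass among 22 (median -0.06). Tfrc, the transferrin receptor gene, rose by 0.64 ± 0.06 (SE), Ncoa4, the ferritin autophagy receptor gene, by 0.67 ± 0.12 and Aco1, which encodes an iron-sensing regulator of ferritin and transferrin receptor mRNAs, by 0.57 ± 0.08. Fth1, the ferritin heavy chain gene, fell by 0.76 ± 0.06 and Ireb2, the gene of the other iron regulatory protein, by 0.40 ± 0.07. Steap3, a ferrireductase gene, fell by 0.42 ± 0.10, with a limma adjusted p of 0.0583 without 4EGI-1 replicate 2. Hmox2, the constitutive haem oxygenase gene, chosen after its value was seen, differed by 0.02 ± 0.07 and did not pass.

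Of 23 genes of quinone and carbonyl detoxification, the functional class of Nqo1, 0 rose, 1 fell and 22 did not pass (median -0.07). The gene that fell was Ugdh, which makes the sugar donor for glucuronidation, by 0.35 ± 0.07 (SE). In the fit restricted to genes at or above the median signal, 2 of 14 rose and 5 fell, beside the 22.9% and 28% of all genes in that fit. Genes of selenoproteins and of selenocysteine insertion, on which Txnrd1 depends, gave 2 rises, 3 falls and 17 genes that did not pass among 22 (median -0.04). Sephs2, which makes the selenium donor and is a selenoprotein itself, fell by 1.06 ± 0.06 (SE), the largest fall in the 9 lists. Sepsecs and Pstk, which act on the transfer RNA for selenocysteine, rose by 0.48 ± 0.07 and 0.41 ± 0.08. Selenoh fell by 0.34 ± 0.10 and passed in 1 of the 6 fits that left out an array, that without control replicate 1, with limma adjusted p up to 0.108 in the others. Sephs1 fell by 0.30 ± 0.08. The call of Sephs1 ended in the fits lacking control replicate 1 (limma adjusted p = 0.0862), control replicate 3 (0.0734), 4EGI-1 replicate 2 (0.0756) or 4EGI-1 replicate 3 (0.0634).

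**Figure D3:**
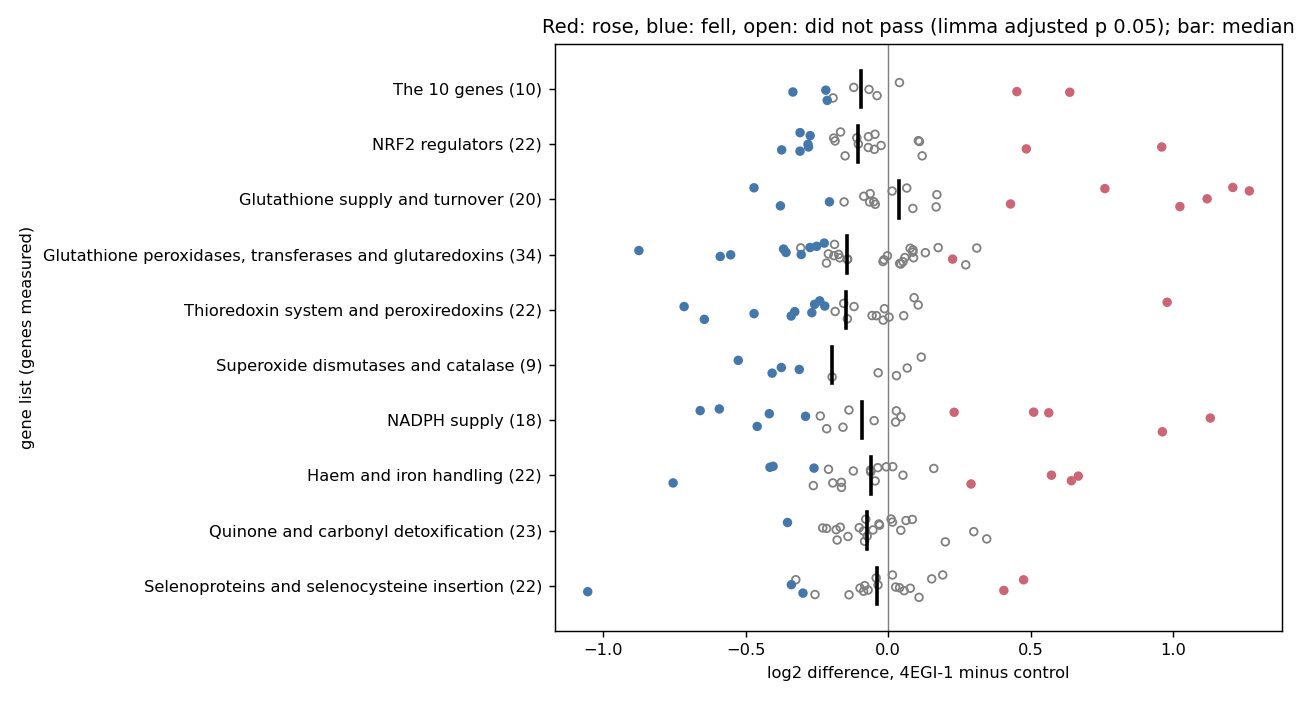
Log2 difference (horizontal axis, 4EGI-1 minus control) of each measured gene in the 10 described here and in the 9 lists of related genes (vertical axis, with the number measured); red points rose, blue points fell, open points did not pass limma at an adjusted p of 0.05, and bars are medians. Medians lie between -0.20 and 0.04, and single genes reach 1.27 (Chac1) and -1.06 (Sephs2).

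Across the 6 arrays, the genes whose pattern was most like that of Nfe2l2 by Pearson correlation were Ppwd1 (0.9999), Wdr76 (0.9998) and Phf3 (0.9996), among 9969 genes at or above the median signal. High correlations with Nfe2l2 were common, since 1286 genes exceeded 0.95 and all of these arrays share the same treatment contrast. The nearest to Txnrd1 were Glyr1 (0.998), Ddx50 (0.972) and A930016O22Rik (0.971), where 23 genes exceeded 0.95. None of these named genes passed between the groups (limma adjusted p = 0.111, 0.412 and 0.133). With 6 arrays and 9969 genes searched, some correlations this high can arise by chance, and how many was not tested.

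Array medians over all probe sets ranged from 6.38 to 6.43, arrays of a group correlated at 0.996 to 0.997 across genes. Precision is limited by the number of arrays. All 12 measured T-cell markers had a mean above the median of all genes, with a mean log2 signal over the list of 10.34 to 10.36 in control arrays and 10.11 to 10.14 in treated arrays; 5 of these markers fell and 0 rose. B-cell (6 genes) and myeloid (8 genes) markers averaged 5.81 to 5.88 and 5.61 to 5.67 in controls and 5.91 to 6.03 and 5.72 to 5.77 with 4EGI-1. Only Blnk of the first list and Adgre1 and Ly6g of the second passed, all higher, from control means of 6.25, 4.92 and 4.59. The median differences of these lists were -0.0037 and -0.0074, with 3 of 6 and 4 of 8 genes below 0. The erythroid (4 genes) and stromal and endothelial (8 genes) lists had 0 calls by limma. They averaged 6.60 to 6.76 and 7.11 to 7.21 in controls and 6.56 to 6.68 and 7.06 to 7.13 with 4EGI-1. A mean above the median of all genes was not particular to T-cell markers. It was found for 2 erythroid, 6 stromal and endothelial, 2 B-cell and 1 myeloid markers. The part of the marker shifts in the results above was not tested.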

How the data were processed

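Polysomal RNA of 3 control and 3 treated samples was measured on 1 array each. The authors deposited log2 signals for probe sets, which per the submitters' processing notes came from RMA; the sources used here give no further setting. Of 34760 probe sets, 21640 have 1 gene symbol in the platform annotation; symbols were updated by Entrez identifier through RefSeq (21553 matched). Where a symbol had several probe sets, that of highest mean was kept, giving 19937 genes. Differences were fitted with lmFit and eBayes (limma 3.58.1, R 4.3.3), without a filter or further normalization, and Benjamini-Hochberg adjusted over all genes, two-sided, threshold 0.05. Scripts were tested on simulated data. SE is the moderated standard error on 8.15 degrees of freedom. Members and lists were chosen with earlier results of these data known. Named genes are all members, up to 3 largest rises and falls per list among genes that passed, and the 3 genes most correlated with Nfe2l2 and with Txnrd1; Txnrd2 entered through the ratio to Txnrd1 and 3 cell type markers as those that rose, and others outside the rule are marked. Alternatives tried were a replicate block, a median filter, the mean of probe sets, every probe set, quantile or median scaling, a trended robust prior, array weights, a threshold of 0.01 and leaving out each array.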

Additional observations from a re-analysis of the deposited data

How the results depend on the processing

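Nfe2l2 and Gsr kept direction and call in all 15 alternatives, and Hmox1 in all but the threshold of 0.01 (0.45, limma adjusted p = 0.0130). That threshold left 2736 genes changed (1488 higher, 1248 lower), with 1 member higher and 1 lower, and ended the calls of Gclc (-0.21) and Gclm (-0.22). Gclm also missed the threshold with every probe set tested (-0.22, limma adjusted p = 0.0696) and with arrays centred on the median (-0.22, 0.0607), and Txnrd1 passed with the median filter and with the trended prior (-0.19 in both). Without 1 array in turn the members called lower numbered 1 to 2, the difference ranged from -0.23 to -0.20 for Gclc, from -0.24 to -0.18 for Gclm and from -0.0083 to 0.076 for Keap1, and Keap1 changed sign without control replicate 1 (-0.0083), never passing. The ranges were -0.18 to -0.03 for Nqo1, -0.09 to -0.03 for Gss and -0.08 to -0.01 for Srxn1, with no call in any of them. Over the same 6 fits the genes changed numbered 3546 to 3892. In the fit of genes at or above the median, 22.9% of all genes rose and 28% fell. Most lists are shorter there. Of 18 glutathione peroxidases, transferases, glutaredoxins and related enzymes, 2 rose and 11 fell, and of 18 haem and iron genes 7 fell. Of 14 quinone and carbonyl genes 2 rose and 5 fell, and of 14 NADPH genes 4 rose and 7 fell. Falls numbered 11 among 21 thioredoxin genes and 7 among 21 NRF2 regulators. The other list counts stayed at their values. Of 40 named pathway genes, 33 kept their call without any 1 array. For the other differences the cause was not tested. Deviations from the group means correlated at 0.06, 0.11 and -0.02 for same-numbered samples, and between -0.11 and 0.06 for the others. These weak values do not settle whether replicate numbers mark pairs. With the replicate block 4071 genes changed, and 1 member was lower, with Gclc at -0.21 (limma adjusted p = 0.0630) and Gclm at -0.22 (0.0795). Detection calls were not used here, so the limit set by dim probes is not given.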
